A study of Mus musculus with 16 samples.

Results

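The enzymes that turn cholesterol into bile acids were described at the transcript level in mouse liver through 10 genes: Cyp7a1, Cyp8b1, Cyp27a1, Cyp7b1, Cyp2c70, Hsd3b7, Akr1d1, Amacr, Baat and Slc27a5. They were taken by gene symbol from a table of read counts with 41585 rows, and each of the 10 had a row. All 10 also passed the filter on low counts that left 13470 genes for testing. The libraries came from C57BL/6 mice kept for 16 weeks on a diet with 60% fat, in a study of what human CYP2B6, a drug- and lipid-metabolising cytochrome P450, does in diet-induced obesity. The 4 groups were hCYP2B6-Tg females, Cyp2b-null females, hCYP2B6-Tg males and Cyp2b-null males, with 4 liver libraries in each. The hCYP2B6-Tg animals carry human CYP2B6, and the Cyp2b-null animals are named for the loss of mouse Cyp2b genes. Which of the mouse Cyp2b genes were lost was not examined here. Strain and diet were common to all 4 groups, and there was no group on another diet or of wild-type genotype. The labels give neither the promoter of the transgene, nor whether hCYP2B6-Tg mice also lack the mouse genes, nor the age of the mice or the hour at which livers were taken. They also do not state that each library is a separate animal, so p-values rest on library-to-library spread, part of which may be technical.

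Libraries held 5584587 to 9672708 counts, and the 10 genes together took 0.321% to 0.390% of them. The smallest count of any of the 10 in a library was 74, for Cyp7b1 in a Cyp2b-null female. Counts of the mouse Cyp2b10, Cyp2b19 and Cyp2b23 rows, added together, were 9 to 26 in hCYP2B6-Tg females, 0 to 1 in Cyp2b-null females, 6 to 50 in hCYP2B6-Tg males and 0 to 1 in Cyp2b-null males. The hepatocyte markers Alb, Apoa1, Ttr, Serpina1c, Tat and Apob summed to 103248 to 134031 CPM (counts scaled to an equal library total, after TMM normalisation) over the 16 libraries. The Cyp2b-null female libraries 1 and 3 and the hCYP2B6-Tg male library 4 had stood apart in earlier results of these data, and values that change when they are left out together are given beside the results.

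Bile acids are made from cholesterol in hepatocytes by a main, neutral route and a side, acidic route. In the neutral route CYP7A1 hydroxylates the steroid ring in the rate-limiting step and CYP8B1 adds the hydroxyl group that sets cholic acid apart from chenodeoxycholic acid. In the acidic route CYP27A1 of the mitochondrion oxidises the side chain first and CYP7B1 then hydroxylates the ring of the oxysterol. HSD3B7 and AKR1D1 reshape the ring, AMACR flips a side-chain centre before peroxisomal shortening, SLC27A5 (bile acyl-CoA synthetase) activates the acid, and BAAT joins it to taurine or glycine. CYP2C70 makes the muricholic acids that mice have and humans lack. Returning bile acids repress Cyp7a1 and Cyp8b1 through the receptor FXR (Nr1h4), its target SHP (Nr0b2) and, from the gut, FGF15, while Cyp7a1 also follows the daily clock.

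The genes lie apart in the genome (GRCm38.p6, RefSeq annotation). The neutral-route genes are Cyp7a1 at chr4:6265612-6275632 (minus strand) and Cyp8b1, a gene with a single exon, at chr9:121914356-121916305 (minus strand). The acidic-route genes are Cyp27a1 at chr1:74713148-74737897 (plus strand) and Cyp7b1 at chr3:18071944-18243890 (minus strand). Cyp2c70 is at chr19:40153361-40187286 (minus strand), Hsd3b7 at chr7:127800609-127803802 (plus strand), Akr1d1 at chr6:37529978-37574921 (plus strand) and Amacr at chr15:10981756-10996624 (plus strand). The conjugation genes are Baat at chr4:49489416-49507915 (minus strand) and Slc27a5 at chr7:12988346-12998192 (minus strand). Predicted genes overlap Cyp7b1 (Gm23686), Akr1d1 (Gm33429 and Gm7463) and Baat (Gm32894), and since no source used here gives the strand setting of the counting, their reads cannot be told apart. The same holds for reads shared between Cyp2c70 and other members of the Cyp2c family.

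Promoter sequences of 5 of the 10 genes (Cyp8b1, Cyp27a1, Cyp2c70, Hsd3b7 and Akr1d1) were available from RefSeq, each running from 250 bases before the transcription start to 50 bases after it. Those of Cyp8b1, Cyp2c70 and Hsd3b7 are shown because the first is lower and the second higher in females in both genotypes, and the third has the smallest genotype p in males. They are written 5′ to 3′ on the strand of the gene, at chr9:121916256-121916555 (minus), chr19:40187237-40187536 (minus) and chr7:127800359-127800658 (plus).
Cyp8b1: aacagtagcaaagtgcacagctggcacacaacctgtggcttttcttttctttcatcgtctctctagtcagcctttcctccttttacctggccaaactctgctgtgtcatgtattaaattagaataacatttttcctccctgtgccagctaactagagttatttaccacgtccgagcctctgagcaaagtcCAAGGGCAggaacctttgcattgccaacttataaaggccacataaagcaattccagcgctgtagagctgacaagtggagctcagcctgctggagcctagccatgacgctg
Cyp2c70: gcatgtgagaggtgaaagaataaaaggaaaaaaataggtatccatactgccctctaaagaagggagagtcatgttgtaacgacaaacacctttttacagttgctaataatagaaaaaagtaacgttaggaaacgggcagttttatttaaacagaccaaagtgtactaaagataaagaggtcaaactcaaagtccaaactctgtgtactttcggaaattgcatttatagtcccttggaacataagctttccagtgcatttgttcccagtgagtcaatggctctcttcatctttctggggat
Hsd3b7: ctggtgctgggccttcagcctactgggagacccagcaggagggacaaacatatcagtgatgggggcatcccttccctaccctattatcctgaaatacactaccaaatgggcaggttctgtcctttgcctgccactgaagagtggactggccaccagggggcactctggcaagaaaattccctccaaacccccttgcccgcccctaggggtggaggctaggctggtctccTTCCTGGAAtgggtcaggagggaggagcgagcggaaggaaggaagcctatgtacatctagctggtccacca
Capitals mark motif matches. In Cyp8b1 they mark a match to the site CAAGGNCA bound by NR5A receptors such as LRH-1 (Nr5a2), at bases -60 to -53 from the start. In Hsd3b7 they mark a match to the STAT5 motif TTCNNNGAA at bases -21 to -13. Searched on both strands, CAAGGNCA occurred in 6.71% and TTCNNNGAA in 8.3% of 32851 RefSeq promoter windows of the same length. The clock D-box TTANGTAA occurred in 2.32% of them and matched none of the 5 members, and no motif searched matched Cyp2c70, Cyp27a1 or Akr1d1. A match describes letters in the window and is not evidence of binding.

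Ordered by transcript level per length of exon, the 10 genes ran from the acid-activating Slc27a5 at the top to a ring hydroxylase, Cyp7b1 or Cyp7a1, at the bottom. Slc27a5 was the most abundant of the 10 in every group, at 398 ± 15.0 CPM per kb in hCYP2B6-Tg females, 395 ± 35.3 in Cyp2b-null females, 391 ± 29.4 in hCYP2B6-Tg males and 385 ± 13.7 in Cyp2b-null males (SD, n = 4 each). Its lowest library lay above the highest library of the next gene in all 4 groups. Cyp2c70 came second in females, at 292 ± 24.3 in hCYP2B6-Tg and 319 ± 36.6 CPM per kb in Cyp2b-null livers. Cyp27a1 came second in males, at 257 ± 21.0 in hCYP2B6-Tg and 259 ± 12.6 CPM per kb in Cyp2b-null livers. In hCYP2B6-Tg males its range overlapped that of Cyp8b1, and in Cyp2b-null males that of Hsd3b7, so those neighbours in the order did not differ beyond their spread.

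At the low end stood Cyp7a1, Amacr and Cyp7b1. Cyp7b1 was lowest in hCYP2B6-Tg females (10.8 ± 1.25 CPM per kb), Cyp2b-null females (8.94 ± 2.07) and Cyp2b-null males (53.0 ± 9.29), and Cyp7a1 in hCYP2B6-Tg males (33.6 ± 5.67). In females of both genotypes the range of Cyp7b1 was clear of the gene above it. In males of both genotypes it overlapped the ranges of its neighbours. Cyp8b1 stood at rank 7 in hCYP2B6-Tg females (86.8 ± 14.2 CPM per kb) and Cyp2b-null females (65.8 ± 26.5), rank 3 in hCYP2B6-Tg males (207 ± 40.8) and rank 4 in Cyp2b-null males (199 ± 48.1).

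**Figure D1:**
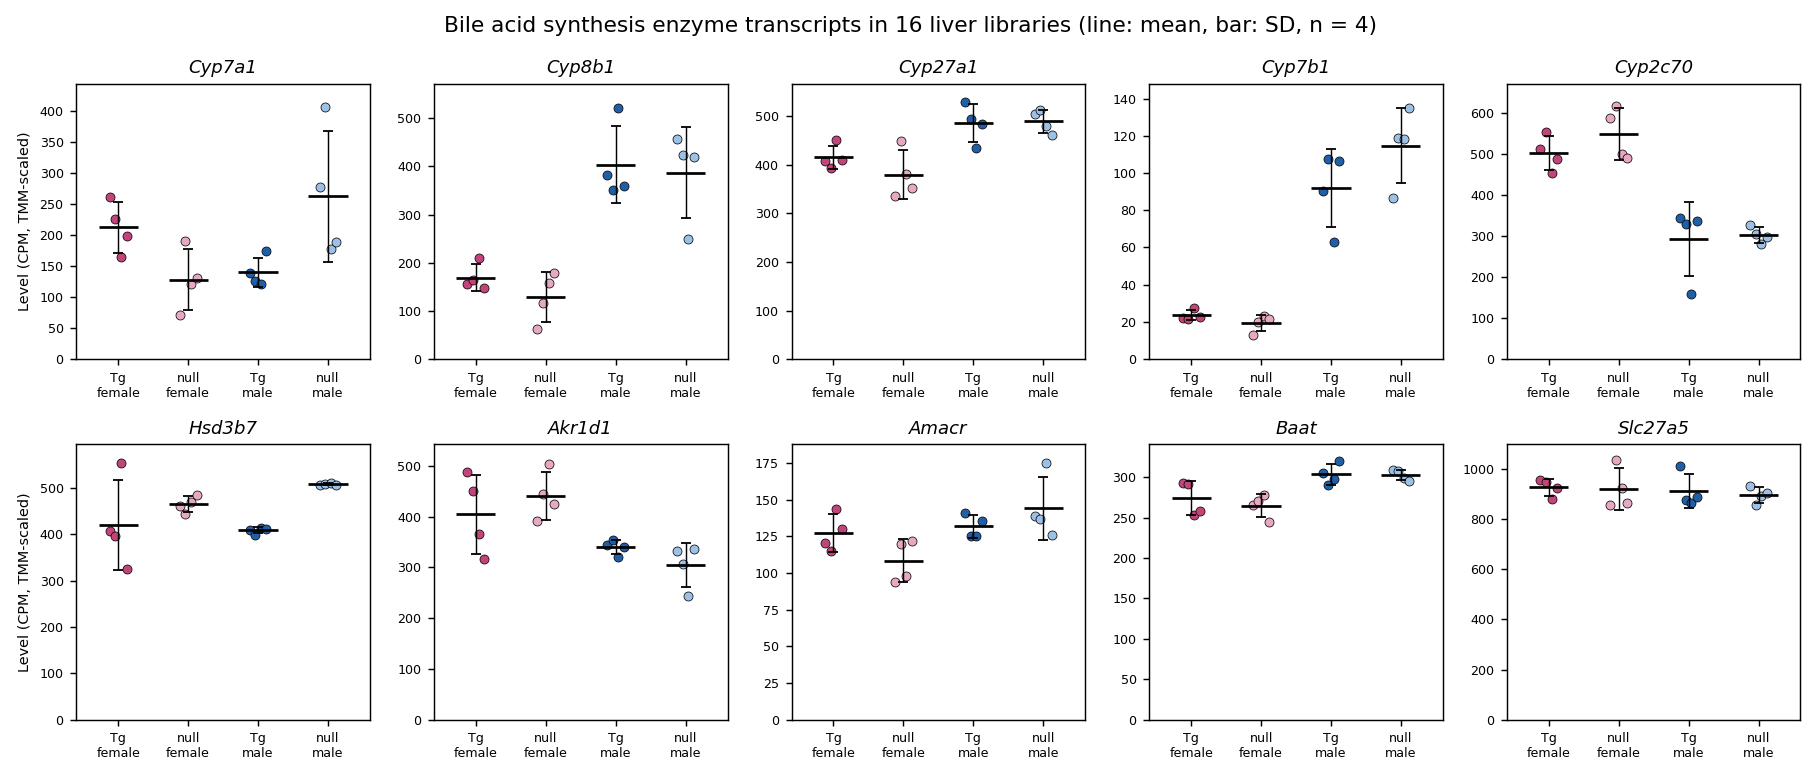
Levels of the 10 bile acid synthesis enzyme transcripts (CPM scaled by TMM, linear axes from 0) in hCYP2B6-Tg females, Cyp2b-null females, hCYP2B6-Tg males and Cyp2b-null males; points are libraries, lines means and bars SD (n = 4). Cyp7b1 and Cyp8b1 sit low in all 8 female libraries, Cyp2c70 sits high in them, and Slc27a5 lies between 856 and 1036 CPM in all 16 libraries.

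The comparison of hCYP2B6-Tg with Cyp2b-null livers addresses human CYP2B6 on the high-fat diet. Of the mouse Cyp2b rows, only Cyp2b10, Cyp2b19 and Cyp2b23 were summed. The libraries also differed in counts on these rows, which together held at most 50 counts in a library. Whether those reads came from mouse genes or from the human transcript was not tested. The parts of the human and the mouse genes therefore cannot be told apart. None of the 10 enzymes passed the threshold of an adjusted p of 0.05 in females, in males, over both sexes or in the difference between the sexes (edgeR quasi-likelihood F test, Benjamini-Hochberg over 13470 genes). Of all genes tested, 0% passed in females, 0.111% in males, 0.0148% over both sexes and 0.0445% in the difference. DESeq2 and limma voom also called 0 of the 10 in each of these comparisons. At an unadjusted p under 0.05 there were 2 of the 10 in females (Cyp7a1 and Amacr, beside 7.59% of all genes), 2 in males (Cyp7a1 and Hsd3b7, 7.17%), 1 over both sexes (Hsd3b7, 6.95%) and 3 in the difference (Cyp7a1, Cyp7b1 and Amacr, 7.7%). The median log2 fold change of the 10 was 0.09 in females and -0.03 in males, beside 0.0016 and -0.0043 for all tested genes. Because whole liver was sequenced, fewer cells of a type and less RNA per cell cannot be told apart in any of these values.

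Cyp7a1, the gate of the neutral route, had the largest genotype estimates of the 10, and they pointed in opposite directions in the sexes without passing the test. In females it had 261, 226, 165 and 198 CPM in the hCYP2B6-Tg libraries, against 70.6, 191, 121 and 131 CPM in the Cyp2b-null libraries. In males it had 139, 127, 122 and 174 CPM in the hCYP2B6-Tg libraries, against 277, 407, 178 and 190 CPM in the Cyp2b-null libraries. The female groups overlapped through Cyp2b-null female 3. All 4 hCYP2B6-Tg males lay below all 4 Cyp2b-null males, but only just, at 174 against 178 CPM.

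The log2 fold change of Cyp7a1 was 0.73 ± 0.31 in females (SE; edgeR adjusted p = 0.625) and -0.91 ± 0.31 in males (adjusted p = 0.533). Averaged over both sexes it was -0.09 ± 0.22 (adjusted p = 0.971). The difference between the sexes was 1.63 (95% interval 0.69 to 2.58, edgeR adjusted p = 0.360), which put Cyp7a1 at rank 97 of 13470 genes. With any single library left out, that difference stayed between 1.33 and 1.88 with adjusted p of 0.295 to 0.578. Over the other settings it was 1.56 to 1.66 with adjusted p of 0.111 to 0.521. Without Cyp2b-null male 2, the highest library, the male estimate was -0.61.

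Cyp8b1 and the acidic-route hydroxylases also did not pass. Cyp8b1 averaged 169 ± 27.7 CPM in hCYP2B6-Tg and 128 ± 51.6 CPM in Cyp2b-null females (log2 fold change 0.39 ± 0.29, edgeR adjusted p = 0.809). In males it averaged 404 ± 79.6 CPM in hCYP2B6-Tg and 387 ± 93.9 CPM in Cyp2b-null livers (0.06 ± 0.28, adjusted p = 0.986). The lowest female value, 61.7 CPM, came from Cyp2b-null female 1, which was also lowest for Cyp7a1 and Cyp7b1. Without Cyp2b-null females 1 and 3 and hCYP2B6-Tg male 4, the female estimate for Cyp8b1 was 0.0091.

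Cyp27a1, at the head of the acidic route, averaged 416 ± 24.5 CPM in hCYP2B6-Tg and 380 ± 50.5 CPM in Cyp2b-null females. In males it averaged 486 ± 39.7 CPM in hCYP2B6-Tg and 490 ± 23.9 CPM in Cyp2b-null livers. Its genotype estimates were 0.13 ± 0.09 in females and -0.01 ± 0.09 in males (edgeR adjusted p = 0.780 and 0.989). Cyp7b1, the next enzyme of that route, averaged 23.5 ± 2.71 CPM in hCYP2B6-Tg and 19.4 ± 4.49 CPM in Cyp2b-null females. In males it averaged 91.9 ± 20.8 CPM in hCYP2B6-Tg and 115 ± 20.1 CPM in Cyp2b-null livers. As for Cyp7a1, the estimates had opposite signs, 0.26 ± 0.20 in females and -0.32 ± 0.17 in males, and the difference of 0.58 ± 0.26 did not pass (edgeR adjusted p = 0.631). Without Cyp2b-null females 1 and 3 and hCYP2B6-Tg male 4 these were 0.07, -0.18 and 0.24.

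Hsd3b7, which reshapes the ring after either hydroxylase, had the smallest coefficients of variation of the 10 in males, 1.59% in hCYP2B6-Tg and 0.472% in Cyp2b-null livers. It had 409, 399, 414 and 412 CPM in the hCYP2B6-Tg male libraries, against 506, 509, 511 and 506 CPM in the Cyp2b-null male libraries. The male groups did not overlap, and both were narrow. The Cyp2b-null male spread was below what random sampling of 2807 to 3782 counts gives on average. The hCYP2B6-Tg male spread was slightly below that of random sampling of 2601 to 3682 counts. The libraries of both male groups therefore probably understate the spread. In hCYP2B6-Tg females the coefficient of variation was 22.9%. In females it had 407, 397, 554 and 324 CPM in the hCYP2B6-Tg libraries, against 461, 443, 469 and 485 CPM in the Cyp2b-null libraries. There hCYP2B6-Tg female 4 was the highest of all 16 libraries and hCYP2B6-Tg female 5 the lowest, so the female groups overlapped.

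Its log2 fold change in males was -0.31 ± 0.10 (95% interval -0.53 to -0.10, edgeR adjusted p = 0.426), and the lowest adjusted p over the other settings was 0.0662. The female estimate was -0.15 ± 0.10 (adjusted p = 0.790), and it was -0.31 without hCYP2B6-Tg female 4 and -0.039 without hCYP2B6-Tg female 5. Over both sexes the estimate was -0.23 ± 0.07 (edgeR adjusted p = 0.458), and it passed when hCYP2B6-Tg female 4 was left out (-0.31, adjusted p = 0.0464). Hsd3b7 and Cyp7a1 were the 2 of 10 genes whose male groups did not overlap, both lower in hCYP2B6-Tg, beside 2.37% of all tested genes in that direction and 4.77% in either. In females 0 of the 10 had groups that did not overlap, beside 3.5% of all genes in either direction.

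The side-chain, ring and muricholic acid enzymes did not pass either. Amacr, the side-chain racemase, averaged 127 ± 12.7 CPM in hCYP2B6-Tg and 108 ± 14.6 CPM in Cyp2b-null females. Male livers had 132 ± 8.10 CPM in hCYP2B6-Tg and 144 ± 21.2 CPM in Cyp2b-null mice. Its estimates were 0.23 ± 0.11 in females (edgeR adjusted p = 0.630) and -0.13 ± 0.11 in males (adjusted p = 0.859), with a difference of 0.36 ± 0.15 (adjusted p = 0.582). The male estimate was -0.019 without Cyp2b-null male 3. The reductase gene Akr1d1 had -0.12 ± 0.12 in females and 0.16 ± 0.12 in males (edgeR adjusted p = 0.860 and 0.847). Leaving out 1 library gave -0.22 (without hCYP2B6-Tg female 1) to -0.021 (without hCYP2B6-Tg female 5) in females, and 0.068 (without Cyp2b-null male 3) to 0.21 (without Cyp2b-null male 4) in males. Cyp2c70 had -0.13 ± 0.18 in females and -0.05 ± 0.18 in males (adjusted p = 0.912 and 0.981), and its male estimate was 0.16 without hCYP2B6-Tg male 4.

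The 95% intervals were narrowest for the conjugation genes. Baat had a genotype log2 fold change of 0.05 (-0.10 to 0.20) in females and 0.0028 (-0.15 to 0.15) in males. Slc27a5 had 0.01 (-0.15 to 0.17) in females and 0.02 (-0.13 to 0.18) in males. For Cyp7a1 the intervals were far wider, 0.06 to 1.40 in females and -1.57 to -0.24 in males.

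**Figure D2:**
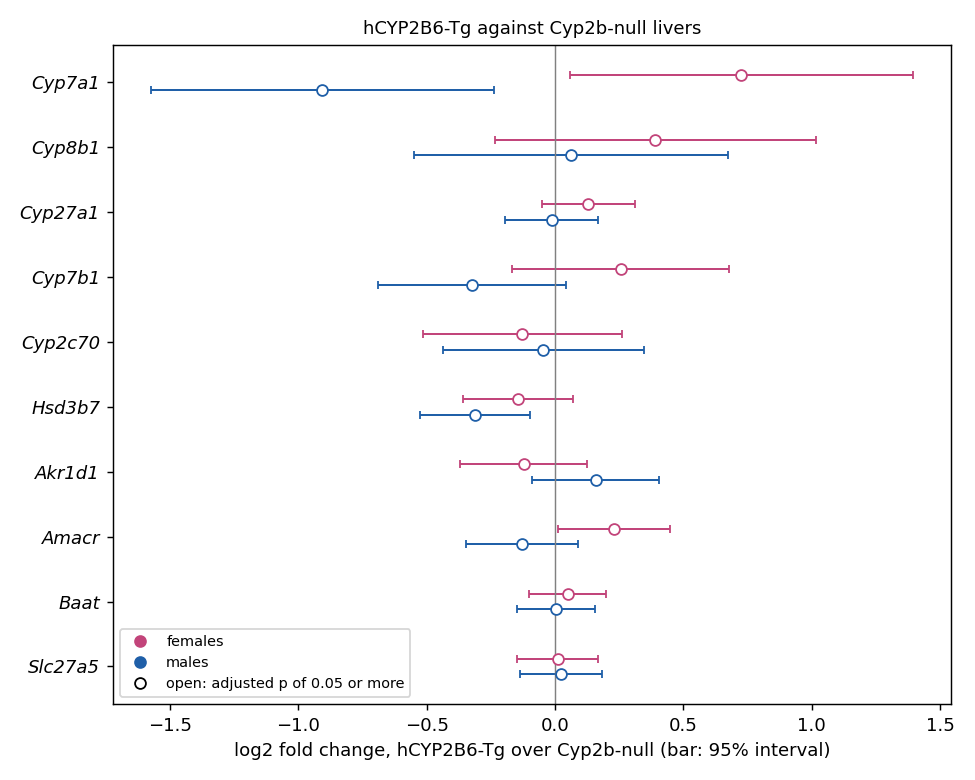
Genotype log2 fold change, hCYP2B6-Tg over Cyp2b-null, for each of the 10 genes in females and in males; points are edgeR estimates, bars 95% intervals without adjustment over genes, and all points are open because no adjusted p was under 0.05. Cyp7a1 lies at 0.73 in females and -0.91 in males, while Baat and Slc27a5 lie within 0.05 of 0.

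More of these transcripts passed for sex than for genotype. In hCYP2B6-Tg livers 3 of the 10 genes differed between females and males, beside 10.3% of all tested genes, with 1 higher (4.69% of all genes) and 2 lower (5.56%) in females. In Cyp2b-null livers 6 of the 10 differed, beside 7.52% of all genes, with 2 higher (3.57%) and 4 lower (3.95%) in females. In females of both genotypes Cyp7b1 and Cyp8b1 fell and Cyp2c70 rose relative to males. In Cyp2b-null livers Cyp27a1 and Amacr also fell and Akr1d1 rose in females. The median log2 fold change of the 10, female over male, was -0.01 in hCYP2B6-Tg and -0.28 in Cyp2b-null livers, beside 0.02 and 0.00 for all genes.

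Cyp7b1 had the largest sex difference. Its libraries held 22.1, 21.7, 27.5 and 22.5 CPM in hCYP2B6-Tg females, against 90.5, 107, 63.0 and 107 CPM in hCYP2B6-Tg males. They held 13.0, 19.8, 23.2 and 21.5 CPM in Cyp2b-null females, against 86.8, 119, 118 and 135 CPM in Cyp2b-null males. Every female library lay below every male one, and the nearest pair were 27.5 CPM in hCYP2B6-Tg female 4 and 63.0 CPM in hCYP2B6-Tg male 4. The log2 fold change was -1.97 ± 0.19 in hCYP2B6-Tg livers, or 0.255 times the male level (edgeR adjusted p = 2.21e-06). In Cyp2b-null livers it was -2.55 ± 0.19, or 0.171 times the male level (adjusted p = 1.31e-07). The call held in both genotypes with each library of the compared groups left out and under each of the 11 other settings.

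Cyp8b1, which commits sterols to cholic acid, differed in the same direction. It had 155, 165, 209 and 147 CPM in hCYP2B6-Tg females, against 381, 352, 522 and 360 CPM in hCYP2B6-Tg males. It had 61.7, 116, 157 and 179 CPM in Cyp2b-null females, against 457, 424, 249 and 419 CPM in Cyp2b-null males. Within each genotype the sexes did not overlap, although Cyp2b-null male 3 came nearer to the females than the other males did. The log2 fold change was -1.26 ± 0.29 in hCYP2B6-Tg (edgeR adjusted p = 0.0145) and -1.58 ± 0.29 in Cyp2b-null livers (adjusted p = 0.00419). The second call was lost when only the 8 Cyp2b-null libraries were fitted (adjusted p = 0.0589).

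Cyp2c70, the muricholic acid enzyme, ran the other way. It had 512, 553, 454 and 489 CPM in hCYP2B6-Tg females, against 345, 331, 159 and 337 CPM in hCYP2B6-Tg males. It had 587, 617, 500 and 490 CPM in Cyp2b-null females, against 327, 305, 280 and 297 CPM in Cyp2b-null males. All 8 female libraries stood above all 8 male libraries, and hCYP2B6-Tg male 4 stood far below the other males. The log2 fold change was 0.78 ± 0.18 in hCYP2B6-Tg (edgeR adjusted p = 0.0132) and 0.86 ± 0.18 in Cyp2b-null livers (adjusted p = 0.00843). Without hCYP2B6-Tg male 4 and Cyp2b-null females 1 and 3 the hCYP2B6-Tg estimate was 0.57 and still passed. The call in hCYP2B6-Tg was lost when only those 8 libraries were fitted (adjusted p = 0.0852).

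Cyp27a1, Akr1d1 and Amacr passed in Cyp2b-null livers alone, and the test of the difference between genotypes did not separate the effects. Cyp27a1 had 336, 450, 381 and 353 CPM in Cyp2b-null females, against 505, 514, 481 and 461 CPM in Cyp2b-null males. Its log2 fold change was -0.37 ± 0.09 in Cyp2b-null (edgeR adjusted p = 0.00896) and -0.23 ± 0.09 in hCYP2B6-Tg livers (adjusted p = 0.111), and the effects differed by 0.14 ± 0.12 (adjusted p = 0.834). It passed in hCYP2B6-Tg livers when the 3 libraries were left out together (adjusted p = 0.0227). Females again lay below males with no overlap in the Cyp2b-null groups.

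Akr1d1, the reductase that bends the steroid ring, had 391, 444, 503 and 425 CPM in Cyp2b-null females, against 333, 306, 243 and 337 CPM in Cyp2b-null males. These groups did not overlap. Its log2 fold change was 0.53 ± 0.12 in Cyp2b-null (edgeR adjusted p = 0.00609) and 0.25 ± 0.12 in hCYP2B6-Tg livers (adjusted p = 0.203), a difference of -0.28 ± 0.17 (adjusted p = 0.734). In hCYP2B6-Tg females the values of 487, 450, 366 and 316 CPM overlapped those of hCYP2B6-Tg males, 345, 354, 321 and 341 CPM.

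For Amacr the Cyp2b-null female libraries had 93.6, 120, 98.1 and 122 CPM, against 139, 137, 175 and 126 CPM in Cyp2b-null males. The groups did not overlap, but 122 and 126 CPM were close. The log2 fold change was -0.41 ± 0.11 in Cyp2b-null (edgeR adjusted p = 0.0156) and -0.05 ± 0.11 in hCYP2B6-Tg livers (adjusted p = 0.832), and the difference of 0.36 did not pass (adjusted p = 0.582). The call was lost without Cyp2b-null female 1 (adjusted p = 0.0647), Cyp2b-null female 4 (0.0643) or Cyp2b-null male 3 (0.102), and without the 3 libraries together (0.0800).

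Cyp7a1 did not pass for sex in either genotype. Its log2 fold change, female over male, was 0.60 ± 0.31 in hCYP2B6-Tg (edgeR adjusted p = 0.264) and -1.03 ± 0.31 in Cyp2b-null livers (adjusted p = 0.0655). The Cyp2b-null estimate passed by DESeq2 (adjusted p = 0.0155), by limma voom (0.0124) and without Cyp2b-null female 3 (-1.28, edgeR adjusted p = 0.0302). It did not pass with the 3 libraries left out together (-1.06, edgeR adjusted p = 0.128). With 1 library left out it ran from -1.28 to -0.74, and 1 of 8 such fits passed (edgeR adjusted p up to 0.180). Of the 11 other settings 2 passed, those by DESeq2 and limma voom. The hCYP2B6-Tg estimate passed when only the 8 hCYP2B6-Tg libraries were fitted (edgeR adjusted p = 0.0209), and in 0 of 8 fits with 1 library left out. These signs are the same opposition already seen between the genotype effects of the sexes, since both come from the same 4 group means.

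The remaining genes did not pass between the sexes in either genotype. Hsd3b7 had 0.04 ± 0.10 in hCYP2B6-Tg and -0.13 ± 0.10 in Cyp2b-null livers (edgeR adjusted p = 0.870 and 0.548). Baat had -0.15 ± 0.07 and -0.19 ± 0.07 (adjusted p = 0.227 and 0.123), and Slc27a5 had 0.03 ± 0.08 and 0.04 ± 0.08 (adjusted p = 0.891 and 0.841). Baat averaged 274 ± 21.3 CPM in hCYP2B6-Tg females and 303 ± 13.0 CPM in hCYP2B6-Tg males. In Cyp2b-null livers Baat averaged 265 ± 14.4 CPM in females and 303 ± 6.61 CPM in males, without overlap.

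By overlap alone, in hCYP2B6-Tg livers 2 of the 10 genes lay lower in all females (8.2% of all genes) and 1 higher (7.41%). In Cyp2b-null livers 6 lay lower in all females (6.64% of all genes) and 2 higher (5.66%). The 6 were Cyp8b1, Cyp27a1, Cyp7b1, Hsd3b7, Amacr and Baat, and the 2 were Cyp2c70 and Akr1d1. Hsd3b7 and Baat were clear of overlap but did not pass the test.

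**Figure D3:**
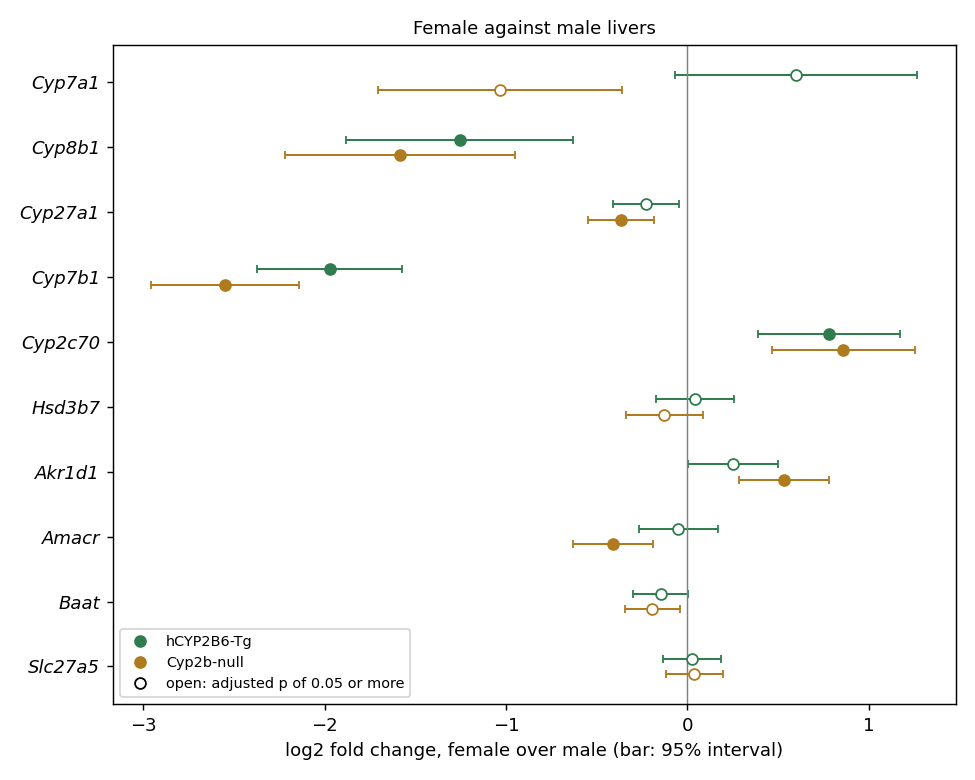
Sex log2 fold change, female over male, for each of the 10 genes in hCYP2B6-Tg and in Cyp2b-null livers; points are edgeR estimates, bars 95% intervals without adjustment over genes, and filled points have an adjusted p under 0.05. Cyp7b1 lies at -1.97 and -2.55, Cyp8b1 at -1.26 and -1.58 and Cyp2c70 at 0.78 and 0.86, in hCYP2B6-Tg and in Cyp2b-null livers.

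Ratios of counts within a library set Cyp8b1, and Cyp7b1 of the acidic route, against Cyp7a1 and do not depend on library scaling. The Cyp8b1 to Cyp7a1 ratio was 0.835 ± 0.299 in hCYP2B6-Tg females and 2.97 ± 0.938 in hCYP2B6-Tg males. In Cyp2b-null livers it was 1.04 ± 0.359 in females and 1.57 ± 0.490 in males (SD, n = 4 each). In hCYP2B6-Tg livers the highest female ratio was 1.27 and the lowest male ratio 2.07, while in Cyp2b-null livers the ranges of 0.607 to 1.36 in females and 1.04 to 2.21 in males overlapped. The Cyp7b1 to Cyp7a1 ratio was 0.115 ± 0.0365 in hCYP2B6-Tg females and 0.658 ± 0.139 in hCYP2B6-Tg males. It was 0.161 ± 0.0397 in Cyp2b-null females and 0.495 ± 0.224 in Cyp2b-null males. The highest female ratio was 0.191 and the lowest male ratio 0.292. These ratios are of counts without scaling for exon length, not of transcript or enzyme molecules, and were not tested.

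**Figure D4:**
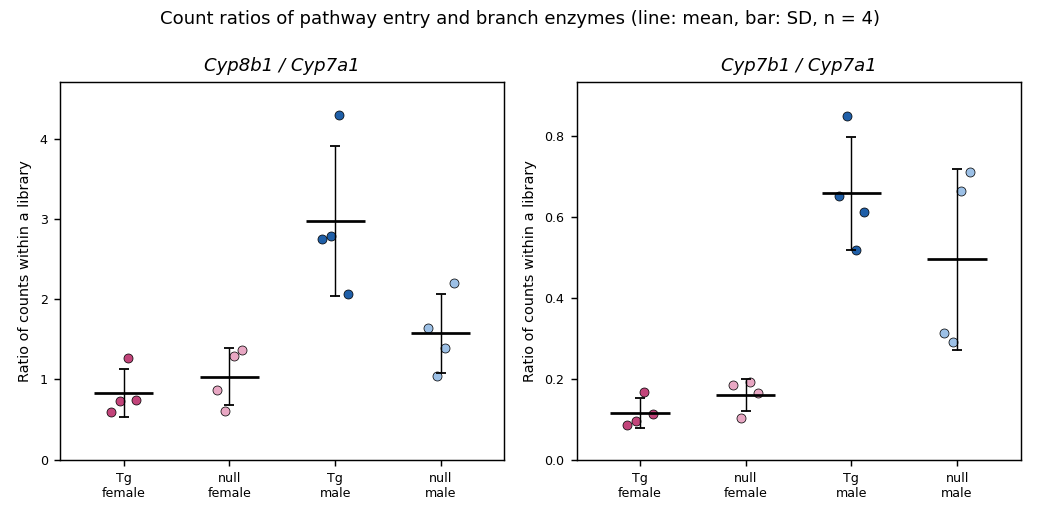
Count ratios within a library, Cyp8b1 to Cyp7a1 (left) and Cyp7b1 to Cyp7a1 (right), in the 4 groups; points are libraries, lines means and bars SD (n = 4), on linear axes from 0. The Cyp7b1 to Cyp7a1 ratio is 0.0848 to 0.191 in the 8 female libraries and 0.292 to 0.850 in the 8 male libraries.

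Other genes of bile acid synthesis and side-chain shortening, 13 listed with 11 tested, included genes that passed for sex and 0 that passed for genotype. In hCYP2B6-Tg livers 0 rose and 4 fell in females relative to males (median -0.24), and in Cyp2b-null livers 1 rose and 2 fell (median -0.24). The shares of all tested genes that passed for sex were 10.3% in hCYP2B6-Tg and 7.52% in Cyp2b-null livers. Scp2, whose long product is the peroxisomal thiolase that cleaves the side chain, fell by 1.28 on the log2 scale in hCYP2B6-Tg females (edgeR adjusted p = 7.48e-11) and by 1.19 in Cyp2b-null females (3.80e-10). It averaged 1484 ± 69.5 CPM in hCYP2B6-Tg females and 3615 ± 239 CPM in hCYP2B6-Tg males. In Cyp2b-null livers it averaged 1585 ± 165 CPM in females and 3619 ± 256 CPM in males. The peroxisomal importer gene Abcd3 fell by 0.58 in hCYP2B6-Tg females (adjusted p = 4.10e-05), and the bifunctional enzyme gene Hsd17b4 fell by 0.37 there (0.00841) and by 0.38 in Cyp2b-null females (0.00808). The oxysterol hydroxylase gene Cyp39a1 rose by 0.98 in Cyp2b-null females (edgeR adjusted p = 0.000439), with 51.6 ± 10.2 CPM in females and 26.2 ± 4.66 CPM in males.

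For genotype 0 of these 11 genes passed in either sex. The smallest p in females was that of Slc27a2, an acyl-CoA synthetase that also activates bile acid precursors (0.43 ± 0.10, edgeR adjusted p = 0.448). It averaged 1447 ± 131 CPM in hCYP2B6-Tg and 1076 ± 165 CPM in Cyp2b-null females. In males the smallest was that of Cyp39a1 (0.44 ± 0.17, adjusted p = 0.537). Median log2 fold changes were 0.04 in each sex.

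Regulators of the pathway, 16 listed with 15 tested, had 0 genes passing for genotype. Nr0b2, which encodes the repressor SHP, had the smallest p in males, with 25.3 ± 8.46 CPM in hCYP2B6-Tg and 59.4 ± 19.2 CPM in Cyp2b-null livers. The ranges of 17.8 to 36.3 CPM in hCYP2B6-Tg males and 41.7 to 86.4 CPM in Cyp2b-null males did not overlap, but the log2 fold change of -1.22 ± 0.27 did not pass (edgeR adjusted p = 0.180). In the same males Cyp7a1 was also lower in hCYP2B6-Tg, likewise without passing. In females the smallest p was that of Klb, the FGF15 co-receptor gene (-0.21 ± 0.11, adjusted p = 0.704). Fgf15, a gut gene, had 0 counts in all 16 libraries.

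Between the sexes 2 of the 15 regulators passed in hCYP2B6-Tg livers, beside 10.3% of all tested genes. There Ppara, the fatty acid receptor gene, fell by 0.41 in females (edgeR adjusted p = 0.00989) and Nr1h3, the gene of the oxysterol receptor LXRα, rose by 0.26 (0.0273). In Cyp2b-null livers 4 passed, 2 in each direction, beside 7.52% of all tested genes. The FXR gene Nr1h4 fell by 0.43 in Cyp2b-null females (edgeR adjusted p = 0.00655), with 98.7 ± 3.18 CPM in females and 133 ± 15.7 CPM in males. The LRH-1 gene Nr5a2 rose by 0.37 (adjusted p = 0.0134) and the partner receptor gene Rxra fell by 0.30 (0.0209). Median log2 fold changes were 0.23 in hCYP2B6-Tg and 0.10 in Cyp2b-null livers.

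Transporters of bile acids and sterols, 14 listed with 12 tested, had 0 genes passing for genotype. Their median log2 fold change was 0.06 in females and 0.02 in males. The smallest genotype p was that of the export pump gene Abcb11 in females (-0.15 ± 0.10, edgeR adjusted p = 0.760) and of the uptake carrier gene Slc10a1 in males (0.23 ± 0.10, adjusted p = 0.619). Between the sexes 2 rose and 1 fell in hCYP2B6-Tg females, and 1 rose and 2 fell in Cyp2b-null females. Of all tested genes 10.3% passed for sex in hCYP2B6-Tg and 7.52% in Cyp2b-null livers. The uptake carrier gene Slco1a1 fell by 6.84 in hCYP2B6-Tg females (edgeR adjusted p = 2.42e-06) and by 7.33 in Cyp2b-null females (1.35e-06), and Slco1a4 rose by 1.06 (0.00824) and by 1.64 (0.000407). The efflux pump gene Abcc4 rose by 1.17 in hCYP2B6-Tg females (edgeR adjusted p = 0.00886), and Slco1b2 fell by 0.33 in Cyp2b-null females (0.0172).

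Clock gene levels are given because Cyp7a1 cycles daily, and their part in the Cyp7a1 values was not tested. Of 16 listed clock genes 15 were tested, and their median genotype log2 fold change was 0.36 in females and 0.37 in males, with 0 passing in females. They did not all move one way, since 11 of the 15 estimates were positive in females and 10 in males. Arntl was lower in hCYP2B6-Tg livers, at -0.93 ± 0.33 in females and -0.94 ± 0.45 in males (edgeR adjusted p = 0.566 and 0.700). The smallest female p was that of the clock repressor gene Bhlhe41 (1.92 ± 0.49, edgeR adjusted p = 0.448). In males Ciart, another clock repressor gene, rose by 1.70 (edgeR adjusted p = 0.0437). Summed over the list the level ran from 750 to 980 CPM in hCYP2B6-Tg females, 514 to 919 CPM in Cyp2b-null females, 813 to 1069 CPM in hCYP2B6-Tg males and 654 to 796 CPM in Cyp2b-null males. The male sums did not overlap, and 0 of the 16 were at 0 in a whole group. Dbp, the gene of a clock output factor that drives Cyp7a1, had 100 to 171 CPM in hCYP2B6-Tg and 11.6 to 164 CPM in Cyp2b-null females. Its male ranges were 116 to 213 CPM in hCYP2B6-Tg and 73.5 to 129 CPM in Cyp2b-null livers. Over the 16 libraries, with group means removed, Cyp7a1 and Dbp had a Pearson r of 0.60, and the points share library scaling and 4 groups. With the other clock genes compared, the r of Cyp7a1 ran from -0.37 (Arntl) to 0.39 (Ciart). Over the enzymes the r of Dbp ran from -0.16 (Hsd3b7) to 0.68 (Cyp27a1). Between the sexes 4 of the 15 clock genes passed in each genotype, beside 10.3% of all tested genes in hCYP2B6-Tg and 7.52% in Cyp2b-null livers. Their medians were -0.13 in hCYP2B6-Tg and -0.07 in Cyp2b-null livers. In hCYP2B6-Tg females Nfil3 rose by 0.99 (adjusted p = 5.41e-05), Cry1 rose by 0.90 (0.0152) and Bhlhe41 fell by 1.49 (0.00161). In Cyp2b-null females Bhlhe41 fell by 2.88 (adjusted p = 5.67e-05), Cry1 rose by 0.87 (0.0241) and Bhlhe40 rose by 0.53 (0.0250).

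Pericentral genes, which mark the zone where Cyp7a1 is mainly expressed, had 0 of 10 passing for genotype, with medians of 0.01 in females and -0.17 in males. The smallest p was that of the WNT target Lgr5 in females (0.58 ± 0.20, edgeR adjusted p = 0.548) and of Tbx3, another WNT target, in males (-1.06 ± 0.29, adjusted p = 0.307). In males 1 of the 10 had a positive estimate, beside a median log2 fold change of -0.0043 for all tested genes. Between the sexes 1 of the 10 passed in hCYP2B6-Tg and 2 in Cyp2b-null livers, beside 10.3% and 7.52% of all tested genes. Lgr5 rose by 1.29 in hCYP2B6-Tg females (edgeR adjusted p = 0.000212). In Cyp2b-null females Lect2 rose by 0.45 (adjusted p = 0.00489) and Cyp2e1 fell by 0.30 (0.0478). The summed level ran from 12143 to 14760 CPM in hCYP2B6-Tg females, 10773 to 13606 CPM in Cyp2b-null females, 12282 to 14058 CPM in hCYP2B6-Tg males and 13053 to 14593 CPM in Cyp2b-null males.

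Markers of other cells were measured beside these results, and their part in them was not tested. For genotype 0 genes of the hepatocyte, Kupffer cell, endothelial, stellate, cholangiocyte, adipocyte and acinar lists passed in either sex. Kupffer cell markers summed to 340 to 468 CPM in hCYP2B6-Tg females, 322 to 552 CPM in Cyp2b-null females, 262 to 331 CPM in hCYP2B6-Tg males and 233 to 365 CPM in Cyp2b-null males. All 6 had positive female over male estimates in each genotype. Vsig4 passed in hCYP2B6-Tg (0.58, edgeR adjusted p = 0.00545), and Vsig4 and Clec4f passed in Cyp2b-null livers (0.90 and 0.58). Of all tested genes 10.3% passed for sex in hCYP2B6-Tg and 7.52% in Cyp2b-null livers. Of 6 hepatocyte markers 2 passed for sex in each genotype, beside 10.3% of all tested genes in hCYP2B6-Tg and 7.52% in Cyp2b-null livers. Serpina1c fell by 0.57 in hCYP2B6-Tg females and by 0.61 in Cyp2b-null females, Ttr fell by 0.33 in hCYP2B6-Tg females, and Alb rose by 0.34 in Cyp2b-null females.

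Endothelial markers summed to 156 to 251 CPM and stellate markers to 205 to 321 CPM over the 16 libraries, with 0 of 6 passing for sex in each list. Cholangiocyte markers summed to 22.9 to 41.3 CPM in hCYP2B6-Tg females, 28.6 to 56.8 CPM in Cyp2b-null females, at most 39.0 CPM in hCYP2B6-Tg males and 20.5 to 98.6 CPM in Cyp2b-null males, with 0 of 3 tested passing for sex. Adipocyte markers summed to 3.72 to 6.80 CPM in hCYP2B6-Tg females, 3.11 to 8.73 CPM in Cyp2b-null females, 8.38 to 43.8 CPM in hCYP2B6-Tg males and 9.45 to 25.1 CPM in Cyp2b-null males. Of these Adipoq, Plin1, Lep and Retn were at 0 counts in all Cyp2b-null females and all hCYP2B6-Tg males, and Cfd was the 1 gene that passed, lower in females of both genotypes. Acinar markers summed to 9.30 to 16.6 CPM in hCYP2B6-Tg females, 11.0 to 16.2 CPM in Cyp2b-null females, 12.9 to 21.4 CPM in hCYP2B6-Tg males and 15.9 to 54.4 CPM in Cyp2b-null males, with Cpa1, Pnlip and Clps at 0 in all groups. Cela1 was the 1 acinar gene tested and fell by 0.80 in Cyp2b-null females (edgeR adjusted p = 0.0213). Lymphocyte markers summed to at most 5.41 CPM, with Trac at 0 in all groups.

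The genes whose levels followed Cyp7a1, Cyp8b1 and Cyp7b1 most closely within groups were found by the Pearson r of log2 CPM over 16 libraries after removal of group means. For Cyp7a1 they were Ugp2 (r = 0.92), Fbxo34 (0.85) and Rcbtb2 (0.85). For Cyp8b1 they were Tert (0.86), Papln (0.83) and Klhl17 (0.83), of which Tert and Papln had an r of -0.32 and -0.18 when group means were kept. For Cyp7b1 they were Mup20 (0.91), Ece2 (0.86) and Zmat5 (0.85). Mup20, a major urinary protein gene of male liver, also had an r of 0.98 with Cyp7b1 when group means were kept. Mup20 averaged 9.52 ± 1.45 CPM in hCYP2B6-Tg females, 8.34 ± 1.95 in Cyp2b-null females, 841 ± 216 in hCYP2B6-Tg males and 811 ± 234 in Cyp2b-null males. Mup genes share sequence, so this row is uncertain as a single gene. These values describe 16 libraries that share their scaling. They were the highest of 13470 genes once predicted-gene names (Gm, Rik or LOC) and date-like names were set aside, so they carry no test.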

How the data were processed

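RNA of frozen livers was extracted with Trizol and made into libraries with an NEB Next Ultra RNA kit, per the labels' protocols. The authors deposited raw counts per gene in 1 table. The build was GRCm38.p6 and the tools were GSNAP, Subread, Trimmomatic, FastQC and edgeR, per the submitters' processing notes. No source used here gives the strand setting or the handling of multiply mapped reads, so reads of overlapping genes and of close copies may be shared. All 16 libraries were in the table; 16032 of its 41585 rows were 0 throughout, 27 symbols had turned into dates, and ribosomal RNA rows took 2.76% to 9.31% of counts.

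The deposited counts were fitted in R 4.3.3 with edgeR 4.0.16 (filterByExpr, TMM, quasi-likelihood F test, robust) as 1 model of 4 groups, with Benjamini-Hochberg adjustment over 13470 genes and a threshold of 0.05. SE is the log2 fold change divided by the square root of F. The code was tested on data simulated for the genotype comparison in males. There 79 of 100 genes changed by 1 on the log2 scale and 95 of 100 changed by 2 were recovered, with 15 false calls. CPM per kb used exon length. Alternatives included limma 3.58.1 and DESeq2 1.42.0. The 10 genes, the gene lists and the tests were chosen with earlier results of these data known. Every one of the 10 is named; of each list, up to 3 called genes with the smallest adjusted p, or else the gene with the smallest p, are named in the sex and within-sex genotype comparisons. Samples were grouped by their labels. Shared replicate numbers were not treated as pairs in the main fit. Deviations of libraries with the same number correlated at -0.107 to 0.122, and libraries with different numbers were not compared. No 2 libraries agreed within sampling noise (chi-square per degree of freedom at least 6.53 within groups).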

Additional observations from a re-analysis of the deposited data

Results flagged for a closer look

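In 3 of 40 combinations of gene and group, 1 library lay far from the other 3 of its group, where chance gives about 1 in 20. Cyp7b1 was highest in hCYP2B6-Tg female 4, at 27.5 CPM. Cyp2c70 was lowest in hCYP2B6-Tg male 4, at 159 CPM, and the sex difference of Cyp2c70 in hCYP2B6-Tg livers was 0.57 without that library and still passed. Slc27a5 was highest in hCYP2B6-Tg male 2, at 1013 CPM.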

How the results depend on the processing

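The alternatives were other scalings, filters and tools, only the groups of a contrast, no ribosomal RNA rows, a replicate block, each library left out and, chosen after seeing the data, 3 libraries left out together and edgeR's earlier quasi-likelihood method. The 10 enzymes had 0 genotype calls throughout, except Hsd3b7 over both sexes without hCYP2B6-Tg female 4 (0 to 1 call with a library left out). For sex, 3 to 4 of the 10 passed in hCYP2B6-Tg and 5 to 7 in Cyp2b-null livers, beside 4.73% to 11.5% and 3.58% to 8.59% of all genes tested under those settings.

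Counts of all genes called for genotype moved more. Without a filter they were 2 in females and 6 over both sexes. DESeq2 called 12 in females, 47 in males, 31 over both sexes and 16 in the difference between the sexes. Limma voom called 6 in males, 0 over both sexes and 3 in the difference. With only the male libraries 27 were called in males, and with library totals alone 0 in the difference. With 3 libraries left out together, 28 were called in males and 0 over both sexes. With a replicate block, 2 were called in females, 5 in males and 0 over both sexes. Whether the shared numbers pair the samples was not settled. With 1 library left out the counts were 0 to 1 in females, 1 to 24 in males (1 without hCYP2B6-Tg male 4, 24 without Cyp2b-null female 1), 0 to 4 over both sexes and 0 to 12 in the difference. The causes were not tested.

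The log2 fold changes that turned sign were all uncalled. With 3 libraries left out together these were, for Cyp2c70, 0.019 in females, 0.16 in males and 0.090 over both sexes. They were -0.085 in males and -0.038 over both sexes for Cyp8b1, 0.038 in males for Cyp27a1 and -0.0057 over both sexes for Akr1d1. For Slc27a5 they were 0.0046 in the difference and -0.0042 for sex in Cyp2b-null livers. With library totals alone Baat was -0.023 and Slc27a5 -0.0018 in males, and Slc27a5 0.010 in the difference. Without a filter Cyp27a1 was 0.0099 in males, and with only the male libraries Baat was -0.0011. With the replicate block Cyp8b1 was -0.015 in males and Amacr 0.012 for sex in hCYP2B6-Tg livers.

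With 1 library left out, genotype values in females spanned 0.16 to 0.59 for Cyp8b1, 0.069 to 0.22 for Cyp27a1, 0.11 to 0.35 for Cyp7b1, -0.18 to -0.068 for Cyp2c70, 0.012 to 0.085 for Baat and -0.028 to 0.070 for Slc27a5. In males they spanned -0.43 to -0.17 for Cyp7b1, -0.097 to 0.16 for Cyp8b1, -0.053 to 0.041 for Cyp27a1, -0.13 to 0.16 for Cyp2c70, -0.025 to 0.023 for Baat and -0.026 to 0.051 for Slc27a5. Over both sexes they spanned -0.19 to 0.058 for Cyp7a1, -0.10 to 0.040 for Cyp7b1, -0.13 to 0.017 for Cyp2c70, -0.030 to 0.071 for Akr1d1 and -0.0085 to 0.046 for Slc27a5. The difference between the sexes spanned -0.059 to 0.048 for Slc27a5. For sex, Hsd3b7 spanned -0.12 to 0.15 and Slc27a5 -0.0012 to 0.075 in hCYP2B6-Tg livers, and Slc27a5 -0.023 to 0.077 in Cyp2b-null livers.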

Other observations

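With group means removed, the 10 transcripts varied together in a few pairs over the 16 libraries, which share their scaling and fall into 4 groups. The highest Pearson r was 0.63, between Cyp27a1 and Slc27a5, followed by 0.59 between Akr1d1 and Baat and 0.55 between Cyp7a1 and Cyp27a1. The lowest was -0.52, between Akr1d1 and Amacr. Cyp8b1 and Cyp7b1 had an r of 0.88 with group means kept and 0.29 with them removed, and Cyp8b1 and Cyp2c70 had -0.85 and -0.40. Of 60 pairs of an enzyme and 1 of 6 clock genes, the r within groups ran from -0.53 to 0.68. The 3 highest were 0.68 for Dbp with Cyp27a1, 0.63 for Nr1d1 with Cyp8b1 and 0.61 for Ciart with Cyp7b1, and the 3 lowest were -0.53, -0.51 and -0.51 for Arntl with Amacr, Cyp27a1 and Slc27a5.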
